A study of Bos taurus with 9 samples.

Results

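Bovine embryos made by somatic cell nuclear transfer (SCNT, cloning) were compared with embryos made by in vitro fertilisation (IVF) at the 2-cell stage. The comparison used 6 of the 9 libraries of the series, 3 from SCNT embryos and 3 from IVF embryos, chosen by their sample titles. All animals were labelled Holstein, and each embryo library was made from a pool of 6 embryos. The other 3 libraries, each from a pool of 3 oocytes at metaphase of the second meiotic division (MII), served only to show on which side of the unfertilised egg a difference lay. The labels name no donor cell type for the SCNT embryos, no sire, no time of collection and no drug treatment. Nor do they tell whether pools of 1 kind were drawn from separate cultures or animals. All p-values therefore measure the spread between these pools, part of which may be technical.

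After fertilisation, the embryo lives at first on RNA and protein stored in the oocyte, and in cattle the main wave of transcription from the embryo's own genome comes several divisions later. In nuclear transfer the oocyte's chromosomes are removed and a somatic nucleus is put in their place, so the stored RNA is still that of an oocyte while the genome has to be reset from a somatic state. At the 2-cell stage the 2 kinds of embryo thus share most of their RNA by origin. Differences in RNA level can come from storage, degradation, tail length or early transcription, among other sources. The deposited table identifies genes by Ensembl identifier only, and 0 of its 24616 identifiers were found in the RefSeq gene table at hand (assembly ARS-UCD2.0). Genes are therefore described by level, direction and position against the oocyte, 4 of them by identifier. Oocyte and donor cell markers, which would check the labels, could not be looked up by name.

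Levels are in FPKM (fragments mapped to a transcript, scaled by its length and by library depth). The FPKM values summed to between 1276123 and 1294594 in the SCNT libraries and to between 1197565 and 1206014 in the IVF libraries, so these totals did not overlap. Absolute depth is unknown. Relative depth was read from the commonest ratio to SCNT replicate 3 among low genes, those under 1 FPKM in both libraries. It put the 6 embryo libraries within 95.4% to 100% of the depth of the deepest one. Ratios were searched only near equal depth, so a large difference in depth could not have been found. The values are approximate, since only 13.8% to 17.5% of the low genes lay within 0.03 of the common log2 ratio. In oocyte replicates 1, 2 and 3 relative depth was 79.7%, 93.6% and 99.1%, with only 7.38% of low genes that near the common ratio in replicate 1. Their FPKM totals were 1386979, 1153912 and 1267769, a wider spread than among the embryo libraries. They held 7875, 8300 and 8209 genes at 1 FPKM or more, against 8705 to 9455 in embryo libraries. As deposited, positions against the oocyte range thus rest on libraries less evenly scaled than the embryo libraries. Across the genes tested, log2(FPKM + 1) correlated at 0.983 to 0.989 within SCNT, at 0.985 to 0.986 within IVF and at 0.976 to 0.982 between the groups. Genes, not samples, are the points of these correlations, and genes are not independent.

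Many genes differed between SCNT and IVF embryos by a small amount, and a few by a large amount. Of 9278 genes with at least 1 FPKM in 3 or more of the 6 libraries, 1342 (14.5%) had an adjusted p under 0.05 in limma on log2(FPKM + 1). Among them 148 genes (1.60% of those tested) were higher and 1194 (12.9%) were lower in SCNT embryos. The genes called lower had a median log2 change of -0.57, and 90% of them lay between -0.87 and -0.42. Those called higher had a median of 0.69, with 90% between 0.39 and 1.58. Complete separation of SCNT from IVF libraries was seen in 3874 genes (41.8%), of which 436 (4.70%) were higher and 3438 (37.1%) lower in SCNT embryos. In pooled embryos, a lower level per embryo and fewer contributing cells or embryos cannot be told apart, and FPKM shows no change in the total amount of RNA.

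**Figure D1:**
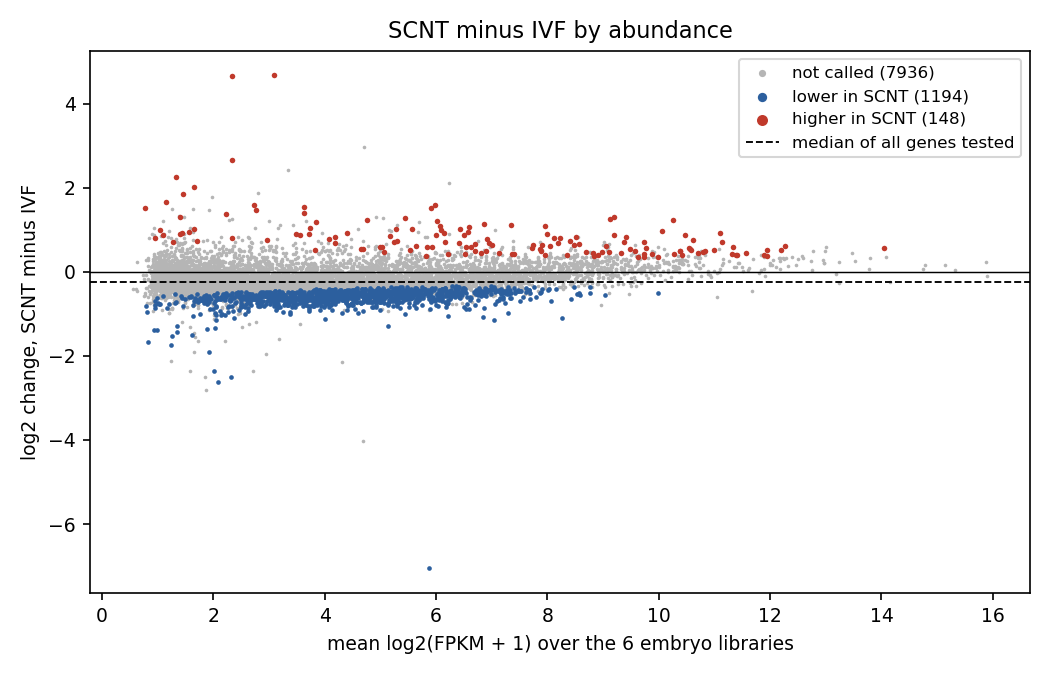
Each point is 1 of the 9278 genes tested, with the mean log2(FPKM + 1) over the 6 embryo libraries on the x axis and the log2 change (SCNT minus IVF) on the y axis. The dashed line marks the median of all genes at -0.25. The 1194 genes called lower form a dense band below that line, most of them at middle levels. The 148 called higher are spread over the whole range of levels.

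Most genes shared a shift towards lower values in SCNT embryos. Over all 9278 genes the log2 change had a median of -0.25, and 77.8% of the genes had a change under 0. The median log2(FPKM + 1) of these genes was 3.33, 3.53 and 3.45 in SCNT replicates 1, 2 and 3, and 3.72, 3.68 and 3.79 in the IVF replicates. No SCNT library reached the lowest IVF library (exact permutation test, two-sided, p = 0.1, the lowest p that this many libraries allow). Measured from this shift, the genes called lower changed by a median of -0.33 and those called higher by 0.94. The size of the shift depended on the scaling. It was -0.31 once all libraries had the same FPKM total, -0.05 after median-ratio scaling and -0.03 after quantile normalization, and this latter pair levels the libraries by construction.

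The number of genes called, and the balance of directions, moved with the scaling and with single libraries. Of the 9278 genes, 2785 (30.0%) were called after rescaling to a common total, 141 higher (1.52%) and 2644 lower (28.5%). Median-ratio scaling gave 281 (3.03%), made up of 220 higher (2.37%) and 61 lower (0.657%). Quantile normalization gave 122 (1.31%), made up of 90 higher (0.970%) and 32 lower (0.345%). Decreases thus made up 89.0% of the calls as deposited and 94.9% after total scaling. They made up 21.7% after median-ratio scaling and 26.2% after quantile normalization. The adjusted p-values lay close to the threshold. In limma 1331 of the 1342 genes called (99.2%) had an adjusted p of 0.02 or more. Each of the 6 libraries moved the count when it was left out. Dropping an SCNT pool left 317 (replicate 1), 835 (replicate 2) or 5 genes (replicate 3). Dropping an IVF pool left 14 (replicate 1), 247 (replicate 2) or 4 genes (replicate 3). Higher calls outnumbered lower ones without SCNT replicate 3 (4 against 1), IVF replicate 1 (11 against 3) and IVF replicate 3 (4 against 0). Lower calls prevailed when any other single library was dropped. With the oocyte libraries added to the fit, 19 genes passed, 12 higher and 7 lower. Before adjustment the number with p under 0.05 in limma moved less, at 3426 with all 6 libraries and 2425 to 3460 with 1 left out. These genes are not independent, since many of them deviate together within a library.

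**Figure D2:**
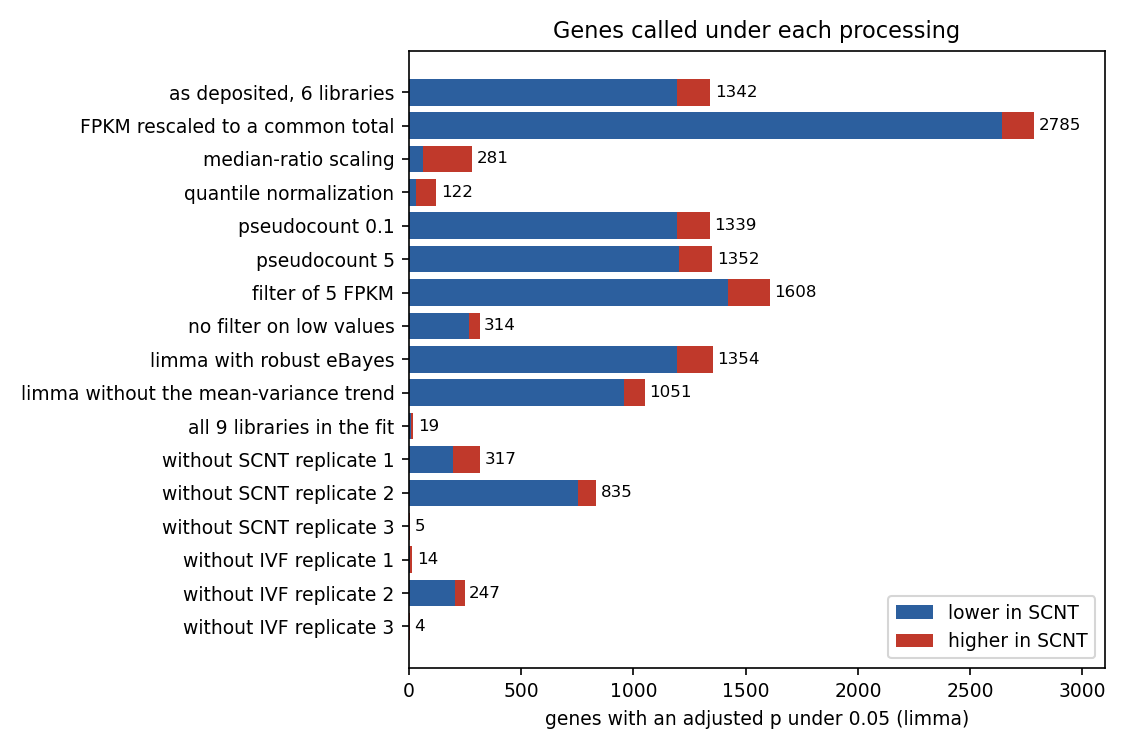
Bars give the number of genes with an adjusted p under 0.05 in limma for SCNT minus IVF under each processing, split into genes lower (blue) and higher (red) in SCNT embryos, with the total beside each bar. The total runs from 4 genes without IVF replicate 3 to 2785 with FPKM rescaled to a common total. Blue outweighs red as deposited but not with median-ratio scaling or quantile normalization. Nor does it with all 9 libraries in the fit, or without SCNT replicate 3, IVF replicate 1 or IVF replicate 3.

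Among genes not listed at 0 throughout the IVF libraries, and on the log2(FPKM + 1) scale, ENSBTAG00000012370 had the largest increase in SCNT embryos. SCNT replicates 1, 2 and 3 held 45.7, 36.7 and 43.6 FPKM of it, the IVF replicates 0, 2.23 and 0.474 FPKM and the oocyte pools 0.662, 0.467 and 5.40 FPKM. Every SCNT library was far above every IVF and oocyte library, while IVF embryos and oocytes overlapped. The log2 change was 4.67 (SE 0.372, adjusted p = 0.00351, limma), and it passed in all 17 alternative processings, with adjusted p-values from 0.000134 to 0.0385. For ENSBTAG00000031194 the SCNT pools held 7.79, 17.9 and 10.9 FPKM and the IVF pools 0.754, 1.01 and 1.30 FPKM. The oocytes had 0.338, 0.524 and 1.00 FPKM, so this gene too stood apart in SCNT embryos only, with IVF embryos and oocytes overlapping. Its log2 change was 2.65 (SE 0.269, adjusted p = 0.0118, limma). Its call was lost in 2 of 17 alternatives, without SCNT replicate 3 (adjusted p = 0.0647, limma) and without IVF replicate 3 (adjusted p = 0.0679, limma). The range over all 17 was 0.00187 to 0.0679.

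The largest decrease in SCNT embryos was that of ENSBTAG00000047645, an abundant gene with uneven values. IVF pools held 343, 508 and 1723 FPKM and oocyte pools 975, 226 and 266 FPKM, but the SCNT pools only 0, 129 and 0 FPKM. A value of 0 in such an abundant gene may be a failed estimate, so the gene is said only to be listed at 0 there. The log2 change of -7.05 (SE 1.70, adjusted p = 0.0361, limma) rests on those 2 libraries, and its call was lost in 11 of 17 alternatives (adjusted p from 0.00206 to 0.122). The lowest of these p-values is for the fit without SCNT replicate 2, in which both SCNT libraries left are listed at 0 and add no spread. For ENSBTAG00000007296 the IVF pools held 15.2, 8.40 and 10.03 FPKM and the SCNT pools 0, 2.19 and 1.90 FPKM, while all 3 oocyte pools were listed at 0. All IVF libraries lay above all SCNT libraries, and embryos of both kinds held at least 1 library above the oocytes. Its log2 change was -2.50 (SE 0.427, adjusted p = 0.0251, limma). The call was lost in 5 of 17 alternatives (adjusted p from 0.0118 to 0.109), among them the fits without SCNT replicate 3, IVF replicate 1 and IVF replicate 3.

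**Figure D3:**
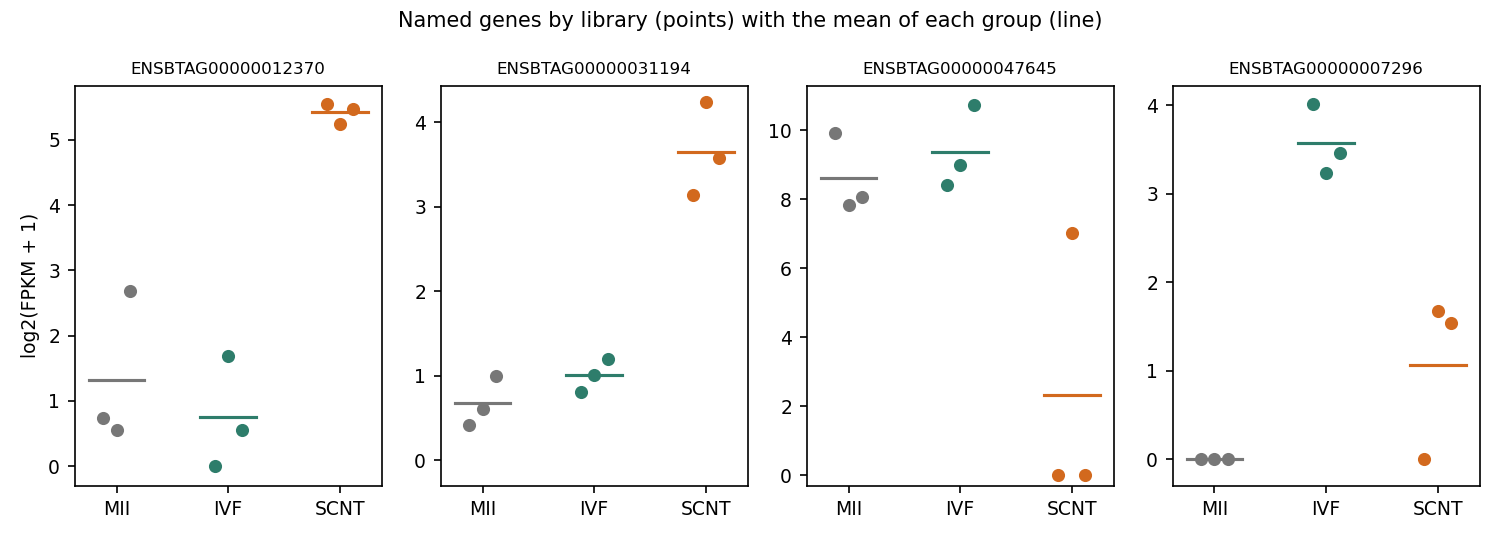
Each panel shows 1 gene, with log2(FPKM + 1) on the y axis, a point per library and a line at the mean of the MII, IVF and SCNT libraries. In the 2 panels on the left the SCNT points stand above both other groups. In the third panel 2 SCNT points lie at 0, and in the fourth the IVF points are highest and the 3 oocyte points lie at 0.

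Genes with the smallest adjusted p-values were mostly higher in SCNT embryos. Of the 11 genes with an adjusted p under 0.02 in limma, 10 were higher and 1 was lower. In a pair of abundant genes among them, given here without identifiers, the lowest SCNT library was more than 2 times the highest IVF library. For the first, SCNT pools held 802, 858 and 948 FPKM, IVF pools 390, 349 and 344 FPKM and oocyte pools 489, 365 and 567 FPKM. Its log2 change was 1.26 with an SE of 0.105 (adjusted p = 0.00351, limma). For the second, SCNT pools held 922, 997 and 828 FPKM, IVF pools 396, 373 and 350 FPKM and oocyte pools 180, 89.6 and 265 FPKM. Its log2 change was 1.29 with an SE of 0.106 (adjusted p = 0.00351, limma). In the first gene IVF embryos lay below or within the oocyte range, and in the second both kinds of embryo lay above it. For the 1 lower gene, SCNT pools held 34.9, 36.6 and 36.3 FPKM, IVF pools 68.9, 63.5 and 67.2 FPKM and oocyte pools 50.2, 71.0 and 49.0 FPKM. Its SCNT libraries lay below all others (log2 change -0.87, adjusted p = 0.0158, limma). Only 4 of the 1342 genes were called in each of the 6 fits that left out 1 library, and all 4 were higher in SCNT embryos. They are ENSBTAG00000012370, the pair of abundant genes and a gene listed at 0 in every IVF and oocyte library.

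Presence in 1 group with a listed 0 throughout the other was rare. Only 2 genes were at 1 FPKM or more in every SCNT library and listed at 0 in every IVF library. They were at 23.0, 25.8 and 23.6 FPKM and at 1.81, 2.04 and 1.77 FPKM in the SCNT replicates. The reverse held for 1 gene, at 1.45, 2.86 and 2.35 FPKM in the IVF replicates. All 3 were listed at 0 in every oocyte library as well. No fold is given for them, and their p-values may be too small, because libraries listed at 0 add no spread.

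As deposited, large differences were increases about as often as decreases. Among the genes called, 65 (0.701% of those tested) had a log2 change of 1 or more in size, with SCNT embryos higher in 34 (0.366%) and lower in 31 (0.334%). Of these, 25 of the 34 increases and 8 of the 31 decreases were also called under all 4 scalings (as deposited and the 3 described above). Increases thus prevailed among the genes with large deposited changes that were called whatever the scaling. Size was judged on the deposited values only, so a change of 1 or more may itself depend on the scaling. Without regard to the test, 60 genes were higher and 53 lower by that amount. The 34 higher genes had a median mean level of 18.1 FPKM over the 6 libraries, and 9 of them were under 5 FPKM. The 31 lower genes were less abundant, with a median of 3.75 FPKM and 20 under 5 FPKM, where the pseudocount makes up much of a value. At least 1 embryo library was listed at 0 in 8 of the higher and 11 of the lower genes. Set against the oocyte, the mean of the SCNT libraries lay above the range of the 3 oocyte libraries in 32 of the 34 higher genes, against 47.8% of all genes tested. In 17 of the 34 (50.0%) the IVF mean was above that range too, a share near the 45.4% of all genes tested in which both means were above. In 10 the IVF mean was within the range and in 5 below it (29.4% and 14.7%, against 2.06% and 0.323% of all genes tested). Of the 31 lower genes, the SCNT mean lay below the oocyte range in 17, within it in 9 and above it in 5. Below the range lay 29.4% of all genes tested. Both sides of these positions are partly set by the choice of genes on the difference between SCNT and IVF.

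**Figure D4:**
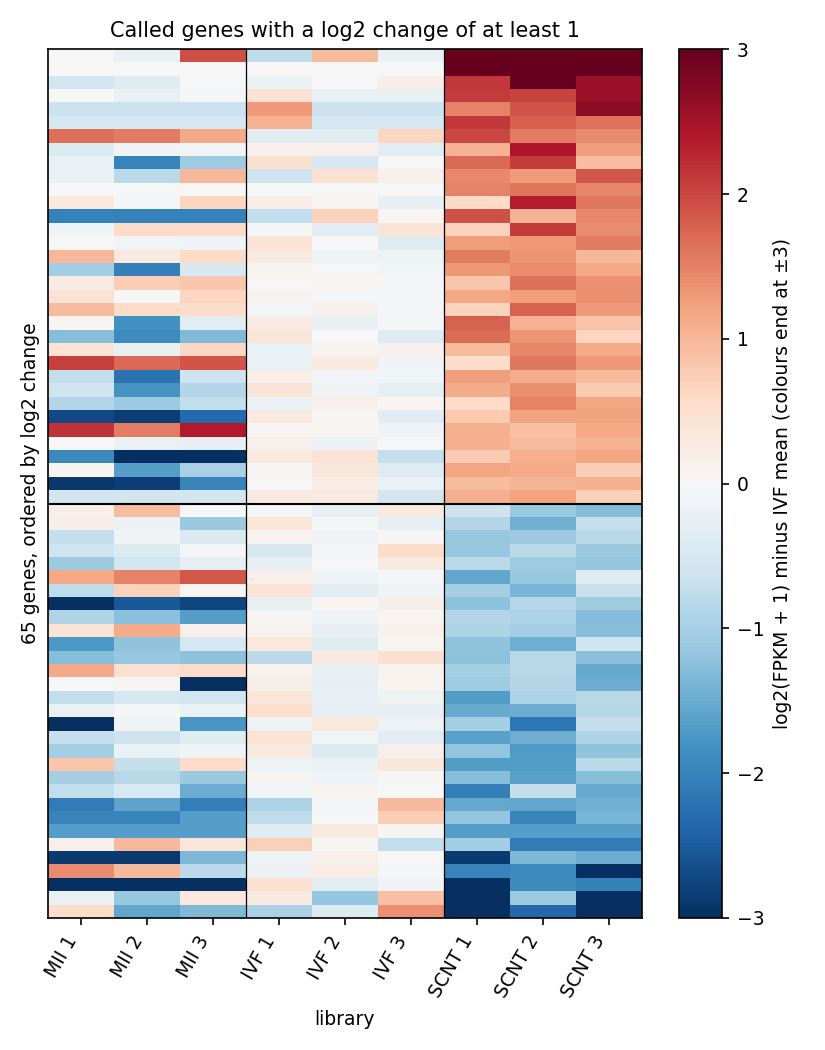
Rows are the 65 genes called with a log2 change of at least 1, ordered by log2 change, and columns are the 9 libraries. Colour gives log2(FPKM + 1) minus the mean of the IVF libraries, ending at 3 in either direction. The 3 SCNT columns are mostly red in the 34 upper rows and mostly blue in the 31 lower rows, which follows from the choice of genes, while the oocyte columns are mixed in both parts.

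The direction of the difference depended on how abundant a gene was. Among the 4916 genes with a mean of 5 to 100 FPKM over the 6 embryo libraries, 958 were called lower (19.5%, against 12.9% of all genes) and 49 higher (0.997%, against 1.60%). Of the 172 most abundant genes, with means from 1000 FPKM upwards, 29 rose (16.9%) and 1 fell (0.581%). The 1113 genes of 100 to 1000 FPKM held 53 higher (4.76%) and 106 lower calls (9.52%). The 3077 genes under 5 FPKM held 17 higher (0.552%) and 129 lower calls (4.19%), both under the shares of all genes. The median log2 change was -0.23 under 5 FPKM, -0.30 at 5 to 100 FPKM, -0.05 at 100 to 1000 FPKM and 0.23 at 1000 FPKM or more. Relative to the median of all genes these are 0.01, -0.06, 0.20 and 0.48. In the most abundant class 87.2% of the genes had a change above 0, against 15.7% at 5 to 100 FPKM.

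Library by library, the class of 1000 FPKM or more had a median log2(FPKM + 1) of 10.98, 11.04 and 10.95 in the SCNT replicates and 10.77, 10.75 and 10.69 in the IVF replicates. The difference of 0.26 exceeded the pooled SD of 0.0455 (n = 3 per group), and the libraries did not overlap. They did not overlap in the classes under 5 and of 5 to 100 FPKM either. For each of these 3 classes the exact permutation test (two-sided) gave p = 0.1, the lowest it can give, or 0.133 adjusted over the 4 classes. At 100 to 1000 FPKM the SCNT and IVF libraries overlapped (exact permutation test, two-sided, p = 0.2). The median change of this class turned to 0.19 with median-ratio scaling. That of the most abundant class was 0.13 after total scaling, 0.46 after median-ratio scaling and 7.07e-05 after quantile normalization, and the last of these makes the distributions equal by construction. Genes of 1000 FPKM or more took 65.1% ± 0.810 (SD, n = 3) of the FPKM total in SCNT libraries and 61.2% ± 1.17 (SD, n = 3) in IVF libraries, without overlap (two-sided exact permutation p = 0.1, the smallest possible). In the oocytes they took 62.2%, 56.5% and 61.7%.

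**Figure D5:**
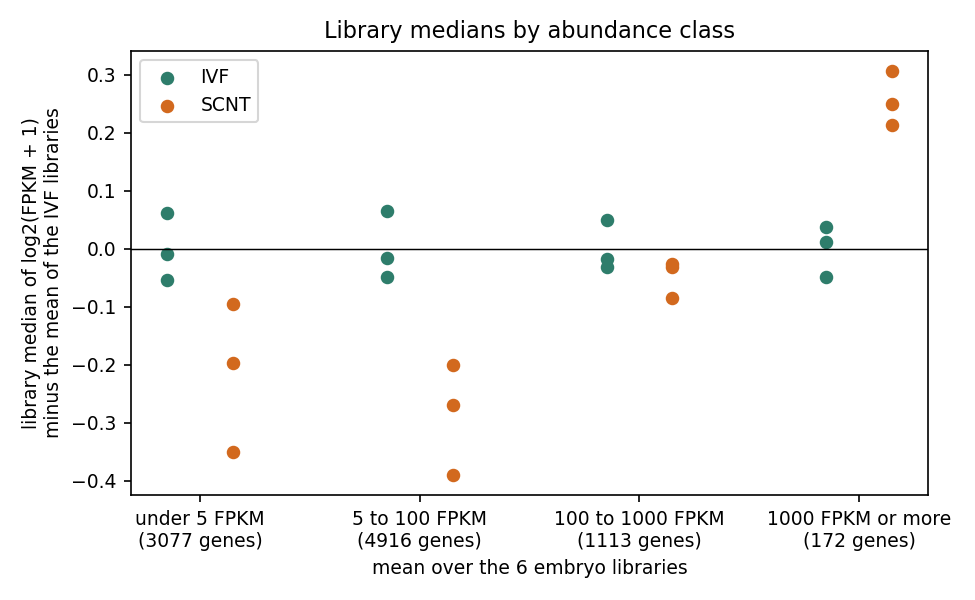
Points are libraries, showing the median log2(FPKM + 1) over the genes of 4 abundance classes minus the mean of the IVF libraries in that class. SCNT points lie below the IVF points under 5 FPKM and at 5 to 100 FPKM, overlap them at 100 to 1000 FPKM and lie above them at 1000 FPKM or more.

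Calls also differed by oocyte level, which played no part in the fit. Levels in oocytes and embryos are related, with 4589 of the 9278 genes tested within 0.5 of the oocyte level on the log2 scale. These classes thus overlap with the abundance classes and add no independent support to them. Genes at 10 to 100 FPKM in oocytes were called lower most often, in 715 of 3029 cases (23.6%, against 12.9% of all genes tested), with 45 higher (1.49%, against 1.60%). At 1 to 10 FPKM in oocytes 325 of 3760 were called lower (8.64%) and 18 higher (0.479%), both under the shares of all genes. At 100 FPKM or more 131 of 1259 were called lower (10.4%), under the share of all genes, and 69 higher (5.48%), over it. Genes above 0 but under 1 FPKM in oocytes were seldom called, with 21 lower (1.74%) and 10 higher (0.829%) among 1206. Only 24 genes tested were listed at 0 in all oocyte libraries. Of these few, 6 were called higher (25%, against 1.60%) and 2 lower (8.33%, against 12.9%). Like all genes tested, they passed the filter through the embryo libraries alone. The median log2 change, from the lowest oocyte level to the highest, was -0.06, -0.15, -0.28, -0.31 and -0.04. The classes of 1 to 10 and 10 to 100 FPKM thus had similar medians but unlike shares called lower, and why was not tested. At 100 FPKM or more it turned to 0.19 with median-ratio scaling.

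Genes furthest above the oocyte level in embryos had, as deposited, the median change nearest to 0 between the 2 kinds of embryo. The departure was taken as the mean of the SCNT and IVF levels minus the oocyte mean on the log2 scale, which gives both embryo groups equal weight. In the 4589 genes within 0.5 of the oocyte level, the median log2 change was -0.30, and 791 genes were called lower (17.2%, against 12.9% of all genes tested) and 42 higher (0.915%, against 1.60%). In the 1398 genes from 1 to 2 above the oocyte level it was -0.13, with 68 lower (4.86%) and 39 higher (2.79%). In the 247 genes 2 or more above the oocyte level it was -0.01, which is 0.23 above the median of all genes, with 4 lower (1.62%) and 18 higher (7.29%). The share called lower was highest in the 789 genes from 0.5 to 1 below the oocyte level, with 188 lower (23.8%), 15 higher (1.90%) and a median of -0.31. The 1956 genes from 0.5 to 1 above it had a median of -0.19, with 109 lower (5.57%) and 23 higher (1.18%). At the other end, the 299 genes at least 1 below the oocyte level had a median of -0.20, with 34 lower (11.4%) and 11 higher (3.68%). These shares are a description without a test.

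As deposited, most genes called lower lay under the oocyte range in SCNT embryos, but not after total scaling. The SCNT mean was below the range of the 3 oocyte libraries in 732 of 1194 genes called lower (61.3%, against 29.4% of all genes tested), and the IVF mean was below it in 185 (15.5%, against 16.0%). After total scaling the SCNT mean was below the range in 46.8% of the genes then called lower, against 27.9% of all genes tested. Of the 1194 called lower as deposited, 430 (36.0%, against 12.2% of all genes) had SCNT below the range and IVF within it. For 225 (18.8%, against 11.3%) the IVF mean was above and the SCNT mean within. In 189 (15.8%, against 45.4%) both lay above. In 117 (9.80%, against 2.61%) the IVF mean lay above and the SCNT mean below. Among the 148 genes called higher, the SCNT mean was above the oocyte range in 115 (77.7%, against 47.8% of all genes tested) and the IVF mean in 66 (44.6%, against 59.3%). In 38 (25.7%, against 2.06%) the IVF mean was within the range and the SCNT mean above it. In 11 (7.43%, against 0.323%) the IVF mean was below and the SCNT mean above. In 21 genes called higher (14.2%) both means lay below the range, near the 14.6% of all genes tested. Genes were chosen on the difference between SCNT and IVF, so both the SCNT and the IVF positions are partly set by that choice and are given as a description.

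The oocyte libraries themselves differed over these genes. The genes called lower took 2.91%, 2.97% and 2.95% of the FPKM total in SCNT replicates 1, 2 and 3 and 4.67%, 4.46% and 5.09% in the IVF replicates. In oocyte replicates 1, 2 and 3 they took 3.73%, 5.69% and 3.79%. Replicate 2 of the oocytes was thus above all IVF libraries, and the other oocyte libraries lay between IVF and SCNT. The genes called higher took 9.49%, 10.1% and 9.52% in the SCNT replicates, 7.21%, 6.93% and 6.87% in the IVF replicates and 9.54%, 7.63% and 9.25% in the oocytes. Here oocyte replicate 2 was nearer to the IVF libraries and the other oocyte libraries lay close to the SCNT libraries. What sets oocyte replicate 2 apart was not tested.

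A smaller set of genes was called in the same direction under all 4 scalings, and in it increases prevailed. It held 95 genes (1.02% of those tested), 70 higher (0.754%) and 25 lower (0.269%) in SCNT embryos. The 70 higher genes had a median log2 change of 0.85 as deposited, 0.74 after total scaling, 1.06 after median-ratio scaling and 1.08 after quantile normalization. The 25 lower genes had -0.90 as deposited and -0.97, -0.68 and -0.67 in the same order. Both named increases and, of the named decreases, ENSBTAG00000007296 belong to it. The higher genes were spread over the abundance range, with 11 under 5 FPKM, 39 at 5 to 100, 18 at 100 to 1000 and 2 at 1000 FPKM or more. Together they took 1.03%, 1.09% and 1.04% of the FPKM total in the SCNT replicates, 0.645%, 0.623% and 0.592% in the IVF replicates and 0.761%, 0.683% and 0.876% in the oocytes. The oocyte libraries thus lay between the embryo groups. The lower genes took 0.0653%, 0.0742% and 0.0671% in the SCNT replicates, 0.143%, 0.127% and 0.149% in the IVF replicates and 0.103%, 0.174% and 0.0857% in the oocytes.

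Against the oocyte, the genes called under all 4 scalings took several positions, which their choice partly sets. In 32 of the 70 higher genes (45.7%) both kinds of embryo lay above the oocyte range, near the 45.4% of all genes tested. In 17 (24.3%, against 2.06%) the SCNT mean lay above and the IVF mean within, and in 7 (10%, against 0.323%) SCNT lay above and IVF below. In 9 (12.9%, against 1.12%) the SCNT mean was within the range and the IVF mean below. In 5 (7.14%, against 14.6%) both were below. At least a 1-unit log2 rise of the embryo mean over the oocyte mean was seen in 32 of the 70 (45.7%), against 17.7% of all genes tested and 2 of the 25 lower genes. In 14 of the 25 lower genes (56%) the IVF mean was within the oocyte range and the SCNT mean below it, against 12.2% of all genes tested. In 4 (16%, against 45.4%) both lay above, and in 3 (12%, against 2.61%) IVF lay above and SCNT below. In 2 (8%, against 14.6%) both lay below. The set shrank to 19 genes without SCNT replicate 2 and to 5 without SCNT replicate 3. Leaving out an IVF pool left 13 (replicate 1), 15 (replicate 2) or 2 genes (replicate 3). Without SCNT replicate 1 it held 112 genes, 96 higher and 16 lower. In each of these fits more genes were higher than lower.

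By the SD over libraries, SCNT pools varied somewhat more among themselves than IVF pools, which was not tested. Their correlations, 0.983 to 0.989 within SCNT, spanned those within IVF (0.985 to 0.986). The median SD over 3 libraries was 0.185 in SCNT and 0.159 in IVF embryos on the log2(FPKM + 1) scale, and 56.6% of the genes had the larger SD in SCNT embryos. The share was highest in genes of 100 to 1000 FPKM, at 60.6%. SCNT replicate 1 had the fewest genes at 5 FPKM or more (5727, against 6174 and 5981 in replicates 2 and 3), and the IVF replicates had 6356, 6295 and 6514. These counts did not overlap between the groups (difference -428 genes, two-sided exact permutation p = 0.1, the smallest possible). At 1 FPKM or more the SCNT libraries had 8705, 9271 and 9010 genes and the IVF libraries 9375, 9230 and 9455, and the groups overlapped (difference -358, two-sided exact permutation p = 0.2).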

How the data were processed

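The authors deposited FPKM values for 24616 Ensembl gene identifiers, 1 column per library. Tools and a build are listed without roles, per the submitters' processing notes: RSEM 1.2.12 and StringTie 1.0.4, Bowtie2 2.2.5 and HISAT 0.1.6, bcl2fastq 2.16, and UMD3.1. Per the labels' protocols, cDNA was tailed and amplified before library making, which can add noise to low genes, and no strand step is described. Columns were matched to samples by title. Genes with at least 1 FPKM in 3 of the 6 embryo libraries were fitted as log2(FPKM + 1) with limma 3.58.1 in R 4.3.3 (mean-variance trend, no covariate, Benjamini-Hochberg adjustment over 9278 genes, threshold 0.05). On this scale a log2 change is too small for low genes. Exact permutation tests (scipy 1.17.1) compared library measures. Figures used matplotlib 3.10.9.

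On simulated data with 9278 genes for SCNT minus IVF, limma recovered 67% of the genes changed by 1 and 91% of those changed by 2 on the log2 scale, and called 7 unchanged genes. The simulated noise was independent between genes, and no shift shared by most genes was built in. Changed genes were drawn only from those with a mean log2(FPKM + 1) above 1. The 7 calls thus do not tell how many of the real calls are false. Named genes are the 2 largest changes per direction among genes called, without overlap between the groups, with the group where they were higher averaging 5 FPKM or more and the other not listed at 0 throughout. Gene lists and cell type markers were not analysed, since no identifier could be paired with a name. The comparison, the rules and the lists were chosen with earlier results of these data known. The set called under all 4 scalings and the classes of departure from the oocyte were added after the data had been seen.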

Additional observations from a re-analysis of the deposited data

How the results depend on the processing

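Under 17 alternative processings and a threshold of 0.1, the count of 1342 genes (148 higher, 1194 lower) stayed within 1.5 times for pseudocounts of 0.1 and 5, a filter of 5 FPKM and robust limma. It stayed so without the mean-variance trend too, although only 95 genes were then higher. It was 314 (47 higher, 267 lower) with no filter on low values, 19 (12 higher, 7 lower) with all 9 libraries and 2729 (317 higher, 2412 lower) at a threshold of 0.1. Total scaling called 2785 (2644 lower), median-ratio scaling 281 (61 lower) and quantile normalization 122 (90 higher, 32 lower). With 1 library left out it ran from 4 to 835, from 4 to 122 for higher and from 0 to 753 for lower genes. The 0 lower genes are those without IVF replicate 3, where limma gave 2425 genes at an unadjusted p under 0.05. The set called under all 4 scalings held 12 genes (11 higher, 1 lower) with no filter, 14 (10 higher, 4 lower) with all 9 libraries and 25 (23 higher, 2 lower) without the trend. Its lower genes numbered 11 with a pseudocount of 0.1 and 43 with a filter of 5 FPKM. With 1 library left out the set ran from 2 to 112 genes, 2 to 96 higher and 0 to 16 lower. The causes of these moves were not tested.

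The labels do not tell whether equal replicate numbers mark pools handled together. Deviations of same-numbered libraries from their group means correlated over genes at -0.053, -0.055 and -0.0081 (replicates 1, 2 and 3). With 3 libraries per group, such values cannot show that the pools were unpaired. With the replicate number as a block 4 genes were called (4 higher, 0 lower, 2894 at an unadjusted p under 0.05 in limma), and the set called under all 4 scalings also held 4 genes.

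The median change of all genes was negative in every alternative, from -0.31 to -0.03. The class of 100 to 1000 FPKM turned to 0.19 with median-ratio scaling. By oocyte level, genes listed at 0 moved to -0.36 with a pseudocount of 0.1 and to 0.54 with a filter of 5 FPKM, and ran from -0.21 to 0.17 with 1 library left out. Genes under 1 FPKM moved to -0.0127 with median-ratio scaling and, reversed, to 0.0408 after quantile normalization. Genes of 1 to 10 FPKM moved to -0.16 with a pseudocount of 5, -0.0940 after median-ratio scaling and -0.0247 after quantile normalization. Genes of 10 to 100 FPKM moved to -0.40 after total scaling, -0.0845 after median-ratio scaling and -0.0599 after quantile normalization. Those of 100 FPKM or more moved to -0.14 with a common total and 0.19 with median-ratio scaling. Of the genes called higher, 68.6% had SCNT above the oocyte range with median-ratio scaling. Of those called lower, 46.8% had SCNT below it after total scaling, 75.4% after median-ratio scaling and 81.3% after quantile normalization. The shares of all genes tested with SCNT below it were 27.9%, 30.4% and 44.3% in the same order. The difference in genes at 1 FPKM or more ran from -496 to -213 with 1 library left out, and was -487 with a common total, -74 with median-ratio scaling, -203 counted from 0.1 FPKM and 0 with quantile normalization, which equalises the libraries by construction.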
